A study of Mus musculus with 18 samples.

Results

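The glucocorticoid receptor gene Nr3c1, the gene of the corticosterone-regenerating enzyme Hsd11b1 and 7 genes known to be induced through the receptor (Fkbp5, Tsc22d3, Zbtb16, Ddit4, Pdk4, Errfi1 and Lpin1) were examined in mouse kidney, 9 of the 32675 genes listed. They were chosen by name, with earlier results of these data known, so that counts of them are descriptions. Right kidneys of 18 male wild-type C57BL/6 mice were sequenced as bulk poly(A) RNA, with 6 mice in each of the Ctrl, PBS and FLX groups. The mice were obtained at 6 weeks of age and acclimatized before the experiment. The PBS and FLX mice were placed with an aggressive resident CD-1 mouse, a different one each day, for 10 min daily over 14 days. Afterwards they stayed across a perforated divider in its cage, in sensory contact with it. This procedure is called chronic social defeat stress (CSDS), and Ctrl mice were not defeated. During CSDS, FLX mice were injected intraperitoneally each day with fluoxetine, a serotonin reuptake inhibitor, at 10 mg per kg. PBS mice were injected with an equal volume of phosphate-buffered saline. Ctrl mice were handled daily, and the study states no injection for them. Defeat and daily injection therefore cannot be told apart in comparisons with Ctrl. No group had fluoxetine without CSDS. A kidney holds many cell types, so that fewer cells of a type and less RNA per cell cannot be told apart in these values. All 13 kidney markers examined, from podocytes to collecting duct and endothelium, were present, with a summed level of 1937 to 2581 FPKM per mouse. The sum mainly follows Umod (695 to 1259 FPKM) and Slc34a1 (362 to 912 FPKM).

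Corticosterone is the main glucocorticoid of the mouse, and the adrenal cortex releases it under stress. Inside the cell it binds the glucocorticoid receptor, which is held ready by Hsp90 chaperones, and the receptor then enters the nucleus and binds DNA elements near its target genes. In the kidney, Hsd11b1 regenerates active corticosterone from its inactive keto form, whereas Hsd11b2 of the distal nephron inactivates the hormone and so protects the mineralocorticoid receptor, Nr3c2. Among induced genes, Fkbp5 encodes a co-chaperone that lowers the affinity of the receptor for hormone, Tsc22d3 (also called Gilz) and Zbtb16 encode transcriptional regulators, Ddit4 inhibits mTOR signalling, Pdk4 restrains entry of pyruvate into mitochondrial oxidation, Errfi1 inhibits the EGF receptor, and Lpin1 encodes a phosphatidate phosphatase of lipid synthesis.

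Some mice stood apart. PBS replicate 6 had a summed level of 118 FPKM for 6 inflammation genes (11.4 to 40.3 in the other 5 PBS mice). These were S100a8, S100a9, Ccr1, Sphk1 and Cxcl1, which the study names, and Lcn2, which it does not, and of the sum 49.2 FPKM were Lcn2 and 22.1 FPKM S100a8. The study deleted 1 PBS mouse for inflammatory expression without naming it, and the values below are over 17 mice without PBS replicate 6, with values over all 18 mice given beside calls that they changed. Ctrl replicate 3 had the highest Nr3c1 level, and without it 1662 genes rather than 772 were called in PBS versus Ctrl. Total counts were 48928823 to 52073640 in FLX replicates 3 to 6, and 72149987 to 79061296 in the other 14 mice. Groups were compared on counts with edgeR's quasi-likelihood test (two-sided, Benjamini-Hochberg adjustment over 20251 genes, called at an adjusted p under 0.05), and levels are FPKM, which are scaled to gene length and depth. The exact two-sided permutation test on log2(FPKM + 0.1) has a smallest possible p of 0.00216 in each comparison.

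In PBS versus Ctrl, 6 of the 9 genes rose and 1 fell. Of all 20251 genes tested, 2.14% were called higher and 1.67% lower. The 6 that rose were Fkbp5, Tsc22d3, Zbtb16, Ddit4, Errfi1 and Lpin1, and Hsd11b1 fell, while Nr3c1 and Pdk4 did not pass the test. In these 7 genes every PBS mouse lay on one side of every Ctrl mouse, an arrangement seen in 3.52% of all genes. The median log2 fold change of the 9 genes was 1.09, beside -0.0078 over all genes tested. The same count of 7 was obtained when each mouse was left out in turn, and with all 18 mice, where 4.28% of all genes were called. In FLX versus PBS only Hsd11b1 was called, as higher (0.306% of all genes), and with all 18 mice none of the 9 was (0.557% of all genes, in either direction), although 7 of the 9 had an unadjusted p under 0.05. Over 17 mice the median of the 9 genes was -0.74 in FLX versus PBS, beside -0.0027 over all genes, and over 18 mice it was -0.68. For FLX versus Ctrl, Tsc22d3, Zbtb16 and Ddit4 were called higher (2.08% of all genes), and Tsc22d3 and Zbtb16 with all 18 mice (1.01%). Hsd11b1 was the 1 gene whose FLX mice all lay above the 5 PBS mice (2.45% of all genes), and Tsc22d3 and Zbtb16 were those whose FLX mice all lay above the Ctrl mice (2.67%). With only FLX replicates 1 and 2, whose totals were like those of the other groups, the FLX versus Ctrl values were 1.06 for Tsc22d3, 2.22 for Zbtb16 and 1.12 for Ddit4, and edgeR called none of the 9 genes, with 4 of all genes called and 2052 at an unadjusted p under 0.05. PBS mice serve in both comparisons with PBS and Ctrl mice in both comparisons with Ctrl, so that the 3 sets of values are not independent.

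**Figure D1:**
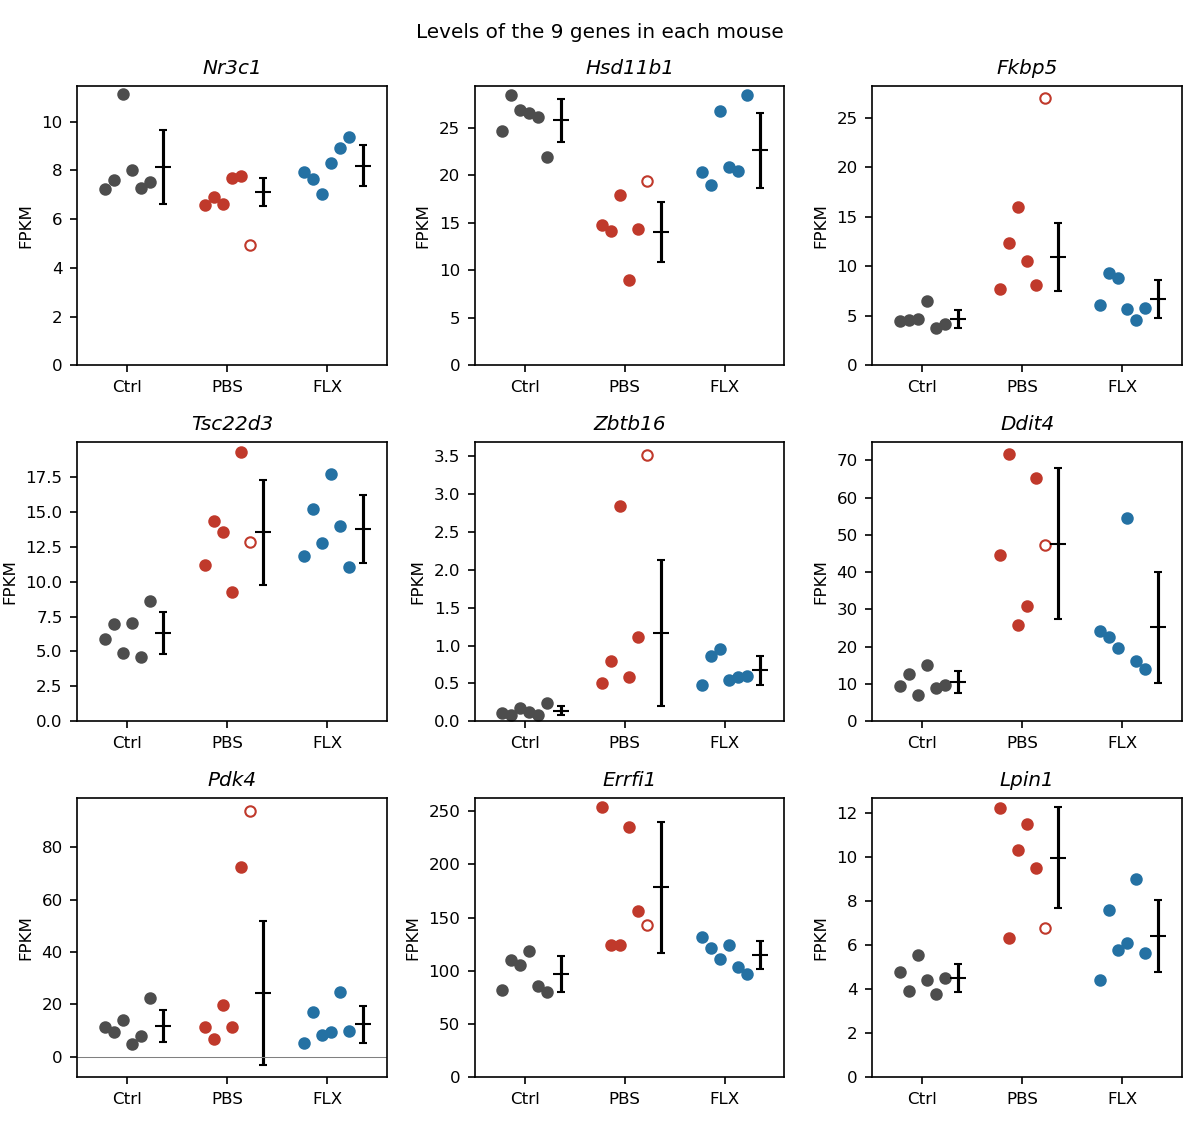
FPKM of each of the 9 genes (linear axis) in the 6 Ctrl, 6 PBS and 6 FLX mice, 1 point per mouse in replicate order, with the mean ± SD to the right of each group; the open point is PBS replicate 6, which is not in the PBS mean. Zbtb16 reached 0.512 FPKM or more in every PBS mouse and no more than 0.238 in any Ctrl mouse, whereas the Nr3c1 points of the 3 groups overlapped.

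In undefeated kidneys, Errfi1 was the most abundant of the 9 genes at 97.1 ± 16.6 FPKM (SD, n = 6). Hsd11b1 followed at 25.8 ± 2.23 FPKM (SD, n = 6), with no overlap with Errfi1. Next came Pdk4 (11.7 ± 6.15), Ddit4 (10.6 ± 2.86), Nr3c1 (8.14 ± 1.50), Tsc22d3 (6.33 ± 1.50), Fkbp5 (4.68 ± 0.936) and Lpin1 (4.50 ± 0.633, all SD, n = 6). Each of these 6 overlapped the gene before it in the order over the Ctrl mice, Pdk4 with Hsd11b1 included. Zbtb16, at 0.139 ± 0.0597 FPKM (SD, n = 6), lay far below the rest.

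Nr3c1 (ENSMUSG00000024431, GRCm38 chromosome 18, 39410545 to 39519421, minus strand), the receptor itself, had 7.24 to 11.2 FPKM in the Ctrl mice (median 7.57). The 5 PBS mice had 6.57, 6.92, 6.64, 7.69 and 7.78 FPKM. FLX mice ranged from 7.03 to 9.38 FPKM (median 8.12). All 3 groups overlapped, and the value of 11.2 belonged to Ctrl replicate 3 alone. Receptor mRNA differed by -0.18 (log2) in PBS versus Ctrl (95% interval -0.38 to 0.022, edgeR adjusted p = 0.349). For FLX versus PBS it was 0.11 (-0.095 to 0.31, edgeR adjusted p = 0.774). The exact permutation p there, not adjusted, was 0.0411, and 0.0195 with all 18 mice. PBS replicate 6 had the lowest level of all mice, 4.93 FPKM, and with it the PBS versus Ctrl value was -0.26 (edgeR adjusted p = 0.205). Tlk1, Nfic and Acbd5 had the levels most like Nr3c1 over the 17 mice (Pearson r 0.896, 0.896 and 0.884).

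Hsd11b1 (ENSMUSG00000016194, chromosome 1, 193221634 to 193243561, minus strand), which returns inactive corticosterone to its active form, was the 1 gene of the set that fell. Ctrl mice had 21.9 to 28.4 FPKM (median 26.4). PBS mice had 14.7, 14.2, 17.9, 9.01 and 14.3 FPKM, every one below the lowest Ctrl mouse. The fold was 0.54, a log2 fold change of -0.88 (SE 0.14, edgeR adjusted p = 0.0013, exact permutation p = 0.00216). FLX mice had 18.9 to 28.4 FPKM (median 20.7), all above the 5 PBS mice, with FLX replicates 3 and 6 inside the Ctrl range. Their log2 fold change over PBS was 0.60 (SE 0.14, edgeR adjusted p = 0.0449). With all 18 mice, PBS replicate 6 at 19.4 FPKM overlapped the FLX mice and the call was lost (0.53, edgeR adjusted p = 0.0874). It was also lost without any of 13 single mice among the 17, at values of 0.49 to 0.64. Between FLX and Ctrl the difference was -0.27 (95% interval -0.54 to -0.0049, edgeR adjusted p = 0.237). The gene overlaps Lamb3 and 4930570N18Rik on the other strand, and with the authors' strand setting not stated, reads of the overlapping genes cannot be told apart.

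The proximal promoters of the induced genes are shown where they held a motif of interest, since 6 of these 7 genes rose in the PBS mice. RefSeq windows of 250 bases before to 50 after the transcript start (GRCm38.p6) were found for 7 of the 9 genes, 10 windows in all, and none was found for Nr3c1 and Zbtb16. The palindromic receptor element, searched on both strands as GNACA and its reverse complement TGTNC set 3 bases apart, was in 0 of the 10 windows and in 0.475% of 32851 windows of all genes. A single arm of it, AGAACA on either strand (TGTTCT on the other), was in 2 of the 10 windows and in 19.0% of all. The clock E-box CACGTG was in 1 window and in 7.15% of all. The motifs did not overlap in the stretches printed. The Fkbp5 stretch, on the minus strand at chr17:28486150-28486399, has the E-box in capitals. The Tsc22d3 stretch (minus strand, chrX:140600660-140600772) and the Lpin1 stretch (minus strand, chr12:16610967-16611216) have TGTTCT in capitals. A letter match describes the window and shows no binding, and these windows leave out elements farther away.
Fkbp5: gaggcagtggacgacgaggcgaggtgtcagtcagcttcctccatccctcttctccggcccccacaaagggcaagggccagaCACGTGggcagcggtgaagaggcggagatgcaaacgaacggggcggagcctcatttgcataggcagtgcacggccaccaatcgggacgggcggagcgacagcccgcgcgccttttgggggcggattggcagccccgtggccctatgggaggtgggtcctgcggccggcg
Tsc22d3: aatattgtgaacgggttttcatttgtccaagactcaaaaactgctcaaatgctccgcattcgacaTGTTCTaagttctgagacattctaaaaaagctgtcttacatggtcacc
Lpin1: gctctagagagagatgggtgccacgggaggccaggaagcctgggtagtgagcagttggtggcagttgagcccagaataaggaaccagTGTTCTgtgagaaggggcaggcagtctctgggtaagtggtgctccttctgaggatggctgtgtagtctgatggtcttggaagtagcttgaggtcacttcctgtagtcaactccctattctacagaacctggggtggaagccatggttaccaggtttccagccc

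Fkbp5 (ENSMUSG00000024222, chromosome 17, 28399094 to 28517527, minus strand), the co-chaperone gene, had 3.75 to 6.46 FPKM in Ctrl mice (median 4.51). PBS mice had 7.73, 12.4, 16.0, 10.5 and 8.14 FPKM. Every PBS mouse exceeded every Ctrl mouse, and PBS replicate 6, left out, was the highest of all at 27.0 FPKM. Fkbp5 rose 2.35-fold (log2 fold change 1.23, SE 0.21, edgeR adjusted p = 0.00237, exact permutation p = 0.00216), and 2.89-fold with all 18 mice. In FLX mice the level was 4.59 to 9.30 FPKM (median 5.92), so that the FLX group overlapped both others. FLX versus PBS gave -0.78 (95% interval -1.22 to -0.35, edgeR adjusted p = 0.0935), and FLX versus Ctrl gave 0.45 (0.031 to 0.86, adjusted p = 0.21). The 3 genes whose levels followed Fkbp5 most closely were Polr3d, Chd9 and Usp2 (Pearson r over 17 mice 0.889, 0.855 and 0.849, among 12099 genes searched), as a description in which group differences and shared libraries contribute. Annotated noncoding genes such as Gm22146 overlap Fkbp5.

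Tsc22d3 (ENSMUSG00000031431, chromosome X, 140539528 to 140600659, minus strand), whose protein restrains inflammatory transcription, had 4.59 to 8.61 FPKM in Ctrl mice (median 6.42). PBS mice had 11.2, 14.3, 13.6, 9.24 and 19.2 FPKM. FLX mice had 11.1 to 17.7 FPKM (median 13.4). Both defeated groups lay wholly above the Ctrl mice and overlapped each other. The rise was 2.13-fold in PBS versus Ctrl (log2 fold change 1.09, SE 0.17, edgeR adjusted p = 0.00138) and 2.04-fold in FLX versus Ctrl (1.03, SE 0.17, adjusted p = 0.00315). Between FLX and PBS the log2 fold change was -0.061 (95% interval -0.42 to 0.30, edgeR adjusted p = 0.947). Cdc42ep4, Tob2 and Tle1 had the levels most like it over the 17 mice (Pearson r 0.916, 0.911 and 0.909).

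Zbtb16 (ENSMUSG00000066687, chromosome 9, 48654297 to 48836222, minus strand), a zinc finger regulator, had the largest fold change of the 9 genes at the lowest level. It had 0.0858 to 0.238 FPKM in Ctrl mice (median 0.12). PBS mice had 0.512, 0.801, 2.84, 0.587 and 1.11 FPKM, with replicate 3 far above the other 4. The rise was 8.21-fold (log2 fold change 3.04, SE 0.39, edgeR adjusted p = 0.000332), 2.43 on the log2 scale without PBS replicate 3, and 10.9-fold with all 18 mice, since PBS replicate 6 had 3.51 FPKM. FLX mice had 0.477 to 0.956 FPKM (median 0.593), again all above the Ctrl mice. FLX versus Ctrl gave a 4.54-fold rise (log2 2.18, SE 0.38, edgeR adjusted p = 0.00552). FLX versus PBS gave -0.85 (95% interval -1.63 to -0.076, edgeR adjusted p = 0.379, exact permutation p = 0.262), which became -0.25 without PBS replicate 3. Sema7a, Clca3a1 and Cdc37l1 followed it most closely over the 17 mice (Pearson r 0.884, 0.883 and 0.874).

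Ddit4 (ENSMUSG00000020108, chromosome 10, 59949669 to 59951834, minus strand), the mTOR inhibitor gene, had 7.17 to 15.1 FPKM in Ctrl mice (median 9.66). PBS mice had 44.7, 71.7, 25.8, 30.8 and 65.3 FPKM, all above the highest Ctrl mouse. It rose 4.51-fold (log2 fold change 2.17, SE 0.32, edgeR adjusted p = 0.000821). FLX mice had 14.2 to 54.5 FPKM (median 21.1), and only FLX replicate 4, at 54.5, exceeded 24.3. FLX versus Ctrl gave a 2.22-fold rise (log2 1.15, SE 0.30, edgeR adjusted p = 0.042), and FLX replicate 6, at 14.2 FPKM, lay below the highest Ctrl mouse. The call was lost with all 18 mice (adjusted p = 0.0537) and without any of 9 single mice, and without FLX replicate 4 the value was 0.82 (edgeR adjusted p = 0.0928). FLX versus PBS gave -1.02 (95% interval -1.68 to -0.37, edgeR adjusted p = 0.159). Without FLX replicate 4 this was -1.36, and it was called (edgeR adjusted p = 0.0263). Cebpb, Polr3e and Nfkbia had the levels most like it over the 17 mice (Pearson r 0.905, 0.899 and 0.893).

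Errfi1 (ENSMUSG00000028967, chromosome 4, 150853919 to 150868892, plus strand), the EGF receptor inhibitor gene, had 79.9 to 119 FPKM in Ctrl mice (median 95.7). PBS mice had 254, 124, 125, 235 and 156 FPKM. All were above the Ctrl mice, but replicates 2 and 3 only narrowly. The rise was 1.86-fold (log2 fold change 0.90, SE 0.19, edgeR adjusted p = 0.0105). FLX mice had 97.1 to 132 FPKM (median 116) and overlapped the Ctrl mice and the lower PBS mice. FLX versus PBS gave -0.74 (95% interval -1.13 to -0.35, edgeR adjusted p = 0.0777), called without PBS replicate 2 (adjusted p = 0.0408) or without PBS replicate 3 (0.0374). The antisense gene 1700045H11Rik overlaps this gene.

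Lpin1 (ENSMUSG00000020593, chromosome 12, 16535669 to 16646966, minus strand), of lipid synthesis, had 3.79 to 5.55 FPKM in Ctrl mice (median 4.47). PBS mice had 12.2, 6.33, 10.3, 11.5 and 9.52 FPKM, again all above the Ctrl mice. Lpin1 rose 2.24-fold (log2 fold change 1.16, SE 0.17, edgeR adjusted p = 0.00073). FLX mice had 4.45 to 9.01 FPKM (median 5.94), with FLX replicate 5 the highest. FLX versus PBS gave -0.73 (95% interval -1.08 to -0.38, edgeR adjusted p = 0.0529). It was called without PBS replicate 2 (adjusted p = 0.0142), FLX replicate 5 (0.0322) or Ctrl replicate 3 (0.0403).

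Pdk4 (ENSMUSG00000019577, chromosome 6, 5483351 to 5496309, minus strand), which restrains glucose oxidation, was the induced gene that passed no test. Ctrl mice had 4.94 to 22.6 FPKM (median 10.4). PBS mice had 11.2, 6.76, 19.8, 11.5 and 72.7 FPKM, and FLX mice had 5.40 to 24.7 FPKM (median 9.61). Apart from PBS replicate 5, the groups overlapped throughout. In PBS versus Ctrl its log2 fold change of 1.04 (95% interval -0.046 to 2.13, edgeR adjusted p = 0.305) became 0.088 without PBS replicate 5. With all 18 mice it was 1.59 (edgeR adjusted p = 0.119), since PBS replicate 6 had 94.0 FPKM. FLX versus Ctrl gave 0.0062 (-1.03 to 1.05, adjusted p = 0.997).

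**Figure D2:**
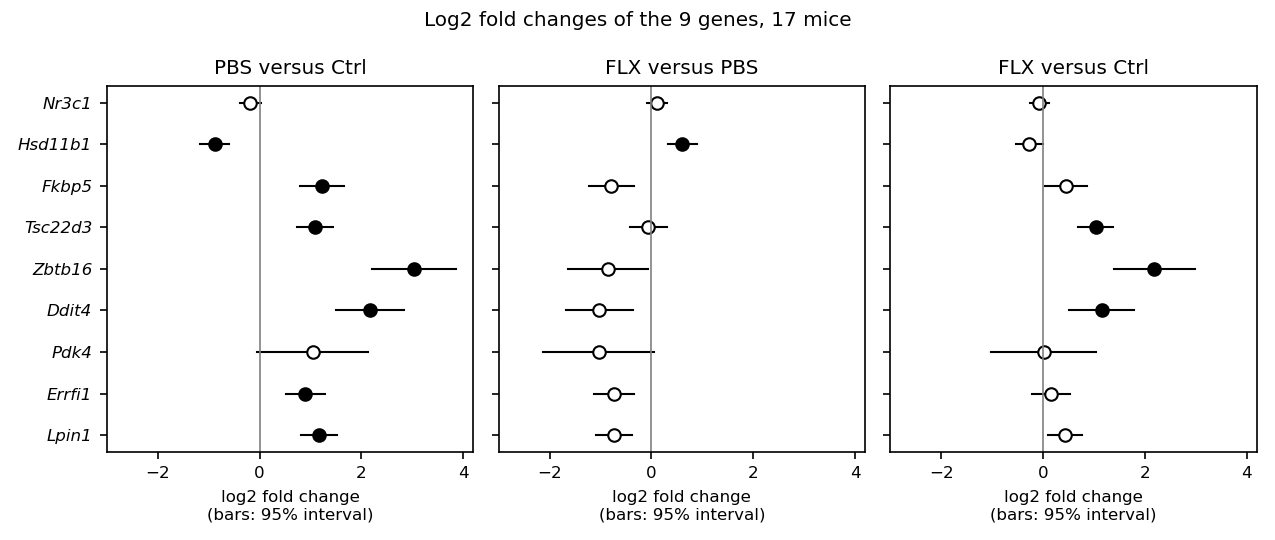
Log2 fold changes of the 9 genes in the 3 comparisons over 17 mice (edgeR), with 95% intervals as bars; filled points have an adjusted p under 0.05. The left panel has 7 filled points, from -0.88 for Hsd11b1 to 3.04 for Zbtb16, the middle panel 1 and the right panel 3.

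Mouse by mouse, the 7 induced genes were counted above the highest Ctrl mouse. Of the 7, PBS replicates 1 to 4 had 6 above it, and PBS replicates 5 and 6 had 7. FLX replicates 1 to 6 had 4, 6, 5, 5, 5 and 3. Tsc22d3 and Zbtb16 were above it in all 6 FLX mice. Ddit4 was above it in 5 of 6. Within groups the 9 genes did not move as 1 block. Of 36 pairs, 16 had a positive correlation of within-group deviations over 17 mice, with a median r of -0.063. The highest was Tsc22d3 with Ddit4 (r = 0.62), followed by Fkbp5 with Zbtb16 (0.59). The lowest was Zbtb16 with Errfi1 (-0.59). These correlations describe 17 mice, whose libraries are shared by both genes of a pair.

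**Figure D3:**
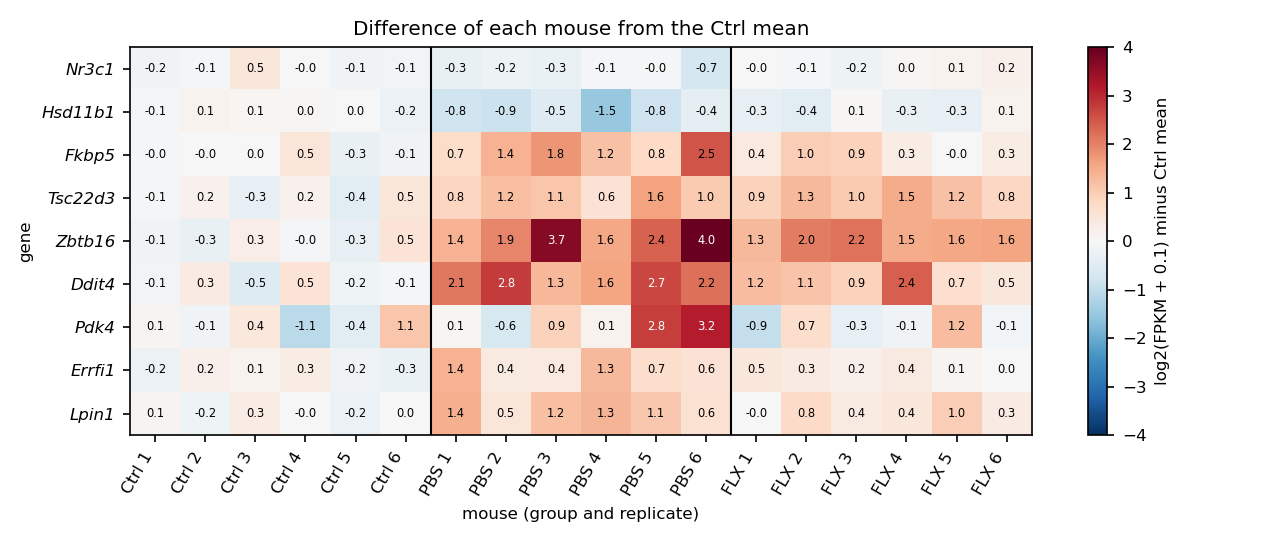
Difference of log2(FPKM + 0.1) from the Ctrl mean for the 9 genes (rows) in each of the 18 mice (columns, by group and replicate), with red for higher and blue for lower. The Tsc22d3, Zbtb16, Ddit4 and Errfi1 rows are above 0 in every PBS and FLX mouse (Errfi1 by only 0.018 in FLX replicate 6), and the Hsd11b1 row is blue in every PBS mouse.

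Fat markers were present to different degrees in the samples. The summed level of 8 fat markers was 1.32 to 79.8 FPKM in Ctrl, 7.24 to 640 in the 5 PBS mice and 10.5 to 471 in FLX mice, with PBS replicate 5 and FLX replicate 5 the highest. None of the 8 was at 0 in all mice of a group, and all 8 had a log2 fold change above 0 in PBS versus Ctrl (median 2.23) and in FLX versus Ctrl (median 2.22), beside medians of -0.0078 and -0.0092 over all genes. By edgeR, 1 of 8 (Elovl3) was called higher in PBS versus Ctrl, beside 2.14% of all genes, and in FLX versus Ctrl the adjusted p of all 8 was above 0.05. Within-group deviations of Pdk4 went with those of the mean log2(FPKM + 0.1) of the 8 markers (Pearson r 0.79 over 17 mice). Those of Lpin1 (0.66) and Tsc22d3 (0.50) did too, whereas Fkbp5 gave -0.32, Ddit4 -0.020 and Errfi1 -0.0095. Without the 2 mice highest in fat markers, Lpin1 still rose in PBS versus Ctrl (log2 1.20, edgeR adjusted p = 0.000726), Tsc22d3 too (0.95, adjusted p = 0.00502), and Pdk4 was at 0.095 (adjusted p = 0.936). All 7 calls of PBS versus Ctrl were kept, and Lpin1 was then called lower in FLX versus PBS (-0.87, edgeR adjusted p = 0.0322).

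**Figure D4:**
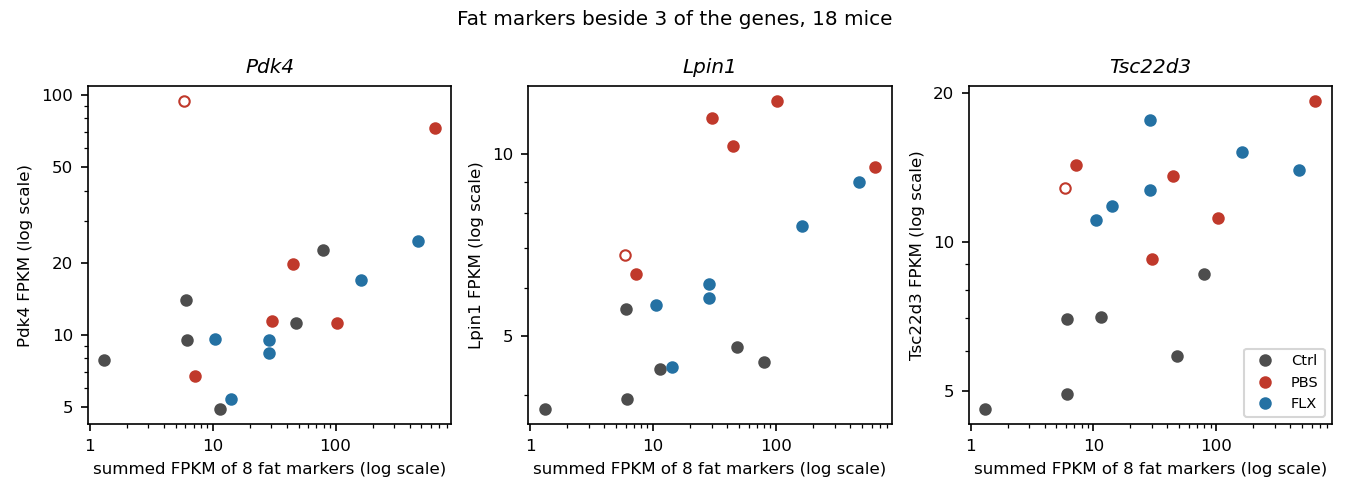
FPKM of Pdk4, Lpin1 and Tsc22d3 against the summed FPKM of 8 fat markers in the 18 mice, both axes logarithmic, with groups by colour and PBS replicate 6 as an open point. PBS replicate 5, at 640 FPKM of fat markers, had 72.7 FPKM of Pdk4, while PBS replicate 6 had 94.0 FPKM of Pdk4 with 5.87 FPKM of fat markers.

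Markers of kidney and other cells were examined as well. Of the 13 kidney markers, 1 was called in PBS versus Ctrl, beside 2.14% of all genes called higher. It was Calb1, of the distal tubule, as higher (log2 0.95, edgeR adjusted p = 0.00354). Summed over 6 adrenal cortex markers, the level was 2.78 FPKM at most, in PBS replicate 5, and Cyp11b2, of aldosterone synthesis, was at 0 in all Ctrl and FLX mice. The 8 neutrophil markers summed to 1.18 to 3.29 FPKM in Ctrl, 7.00 to 26.0 in the 5 PBS mice and 0.228 to 5.14 in FLX mice, and PBS replicate 6 had 66.2 FPKM. Of the 6 neutrophil markers tested, Ngp, S100a8 and S100a9 were called higher in PBS versus Ctrl, beside 2.14% of all genes. The median log2 fold change over the 6 was 2.81, and Retnlg was called too with all 18 mice. Mmp8 and Mmp9 were not called, and Camp and Ly6g were not tested. Ngp was at 0 in every Ctrl mouse and at most 0.552 FPKM in the 5 PBS mice. The leukocyte marker Ptprc had 0.300 to 0.720 FPKM in Ctrl, 0.299 to 0.372 in the 5 PBS mice and 0.349 to 0.638 in FLX mice. Hsd11b1 deviations ran against those of the mean log2(FPKM + 0.1) of the 8 neutrophil markers (r = -0.51). Lpin1 deviations went with it (0.43), and the other 7 genes lay between -0.069 and 0.15. The part of neutrophil RNA in these results was not tested.

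A wider list of 35 glucocorticoid-induced genes, also chosen with earlier results of these data known, was examined beside the 7. In PBS versus Ctrl, 17 of the 34 tested were called higher and 0 lower, beside 2.14% of all genes called higher and 1.67% lower. The log2 fold change was above 0 in 31 and below 0 in 3, with 24 higher and 2 lower at an unadjusted edgeR p under 0.05. Among those not called, Igfbp1 had 8.08 to 18.4 FPKM in Ctrl and 2.10 to 9.43 in the 5 PBS mice. Pik3ip1 had 1.77 to 2.80 and 0.961 to 2.35 FPKM, and Dusp1 had 21.9 to 43.0 and 13.4 to 39.8. The median log2 fold change of the 34 was 0.65 (all genes -0.0078). Cdkn1a, a cell cycle inhibitor, rose most (log2 2.21, edgeR adjusted p = 0.000128), from 1.39 to 3.36 FPKM in Ctrl to 5.53 to 13.6 in PBS mice. Per1, a clock gene also induced by glucocorticoids, followed (2.06, adjusted p = 0.000134). The kinase gene Sgk1, which raises sodium transport in the distal nephron, rose from 9.17 to 21.4 FPKM to 22.9 to 54.8 (log2 1.61, edgeR adjusted p = 0.000694). Arrdc2 (1.96), Cebpd (1.57), Cebpb (1.34), Glul (1.17) and Mt1 (0.94) rose as well, as did Hif3a (1.71) and Mt2 (1.19). Hif3a was at most 0.295 FPKM in these PBS mice, and its call was lost without 5 single mice, as that of Mt2 was without 7. With all 18 mice 20 of the 34 rose, Foxo1, Gadd45a and Scnn1a in addition, beside 4.28% of all genes called in either direction.

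In FLX versus PBS, 10 of these 34 genes fell and 0 rose, with a median of -0.57, beside 0.42% of all genes called lower. With all 18 mice 11 fell, Gadd45a in addition, beside 0.557% of all genes called in either direction. The 10 included Per1 (log2 -1.28, edgeR adjusted p = 0.0171), Cebpd (-1.14, adjusted p = 0.019), Cebpb (-0.86, adjusted p = 0.0157) and Glul (-0.71, adjusted p = 0.0191). Arrdc2 (-1.36), Mt2 (-1.34), Mt1 (-0.88), Pck1 (-0.83, of gluconeogenesis) and Foxo3 (-0.79) fell too. Igfbp1, an insulin-like growth factor binding protein gene, fell most (-2.09, adjusted p = 0.0191), and it was also lower in FLX versus Ctrl (-2.94, adjusted p = 0.00101). The count of 10 was between 2 and 12 when single mice were left out, and 3 without the 2 mice highest in fat markers. In FLX versus Ctrl, Cdkn1a (1.29, edgeR adjusted p = 0.00733) and Sgk1 (1.03, adjusted p = 0.0173) were called higher, beside 2.08% of all genes. Igfbp1 and Pik3ip1 (-0.76, edgeR adjusted p = 0.0368) were called lower in that comparison, beside 1.59% of all genes. With all 18 mice only Sgk1 and Igfbp1 were called there.

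**Figure D5:**
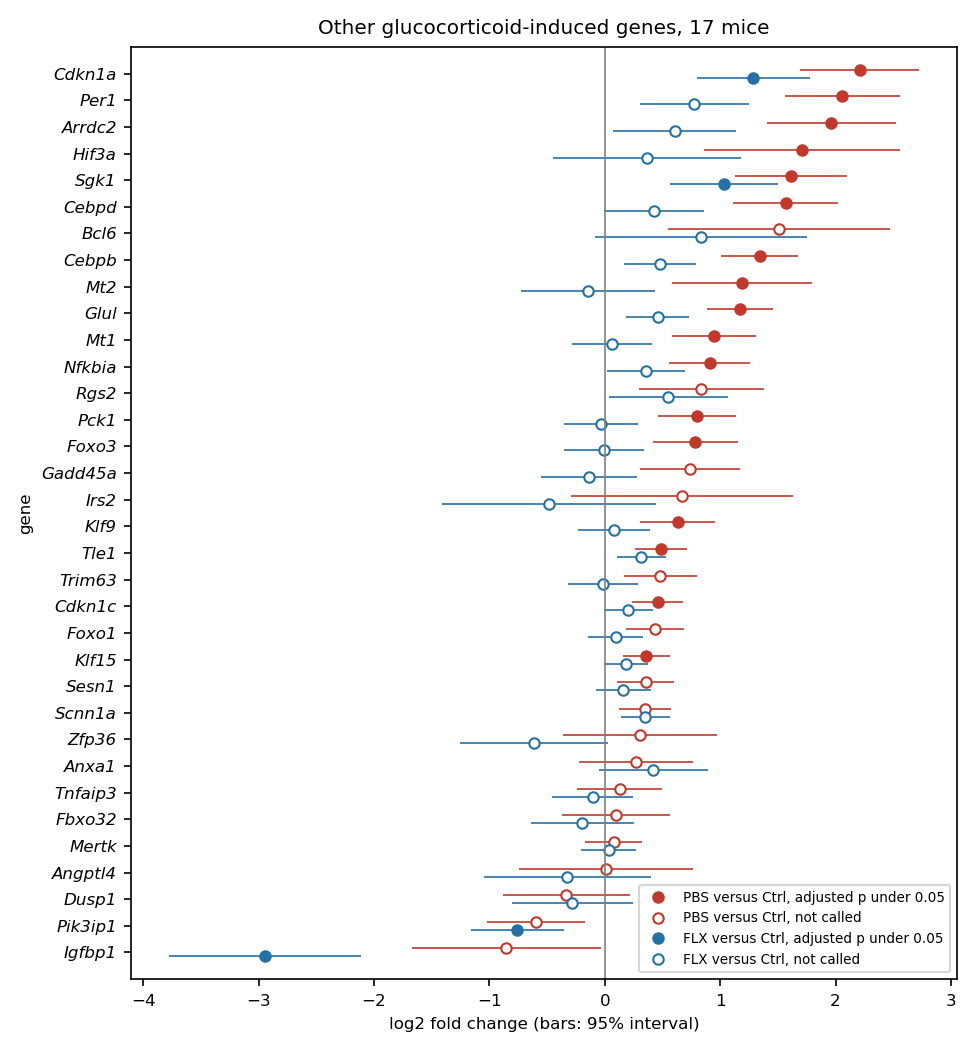
Log2 fold changes of 34 other glucocorticoid-induced genes in PBS versus Ctrl (red) and FLX versus Ctrl (blue) over 17 mice, with 95% intervals as bars; filled points have an adjusted p under 0.05. In PBS versus Ctrl 17 points are filled, all to the right of 0, against 4 in FLX versus Ctrl.

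Per1 is also a component of the circadian clock, and clock genes differed between the groups. Of 14 clock genes, 2 were called higher (Cry1 and Per1) and 0 lower in PBS versus Ctrl, beside 2.14% and 1.67% of all genes. In FLX versus PBS 2 were higher and 7 lower, beside 0.306% and 0.42% of all genes. Dbp was at -3.12 (edgeR adjusted p = 0.00218) and Arntl at 1.14 (adjusted p = 0.0244). With all 18 mice 3 were higher and 5 lower (0.557% of all genes, in either direction), since Cry1 was gained and Per3 and Tef lost. Against Ctrl, 4 were higher and 7 lower in FLX mice, beside 2.08% and 1.59% of all genes, with Dbp at -3.88 and Arntl at 1.73. With all 18 mice 3 were higher, beside 1.01% of all genes, and 6 lower. The hour of each dissection was not stated, and the part of the clock in the Per1 result was not tested. Its part in the results of Nr3c1, Hsd11b1 and the other induced genes was not tested either.

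Genes that handle the hormone or assist the receptor were also counted. Of 24 such genes, 23 were tested, and in PBS versus Ctrl only Dnajb1, a heat shock co-chaperone, was called (log2 1.54, edgeR adjusted p = 0.00773), beside 2.14% of all genes called higher. At an unadjusted p under 0.05 there were 6 of 23, all higher, and 20 of 23 had a log2 fold change above 0. It had 5.54 to 7.27 FPKM in Ctrl and 8.66 to 36.7 in PBS mice. In FLX versus PBS edgeR and DESeq2 each called 0 of 23, with 1 at an unadjusted p under 0.05. For FLX versus Ctrl edgeR called 0, with 8 at an unadjusted p under 0.05, all higher, and DESeq2 called 2. The mineralocorticoid receptor gene Nr3c2 gave 0.074 in PBS versus Ctrl (edgeR adjusted p = 0.783) and -0.13 in FLX versus PBS (adjusted p = 0.742). Hsd11b2, the corticosterone-inactivating enzyme gene, gave 0.42 in PBS versus Ctrl (edgeR adjusted p = 0.101), with 47.6 to 65.9 FPKM in Ctrl and 55.9 to 91.8 in PBS mice. Without PBS replicate 5 Hsd11b2 was called (adjusted p = 0.04), and in FLX versus PBS it was at -0.16 (adjusted p = 0.752).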

How the data were processed

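Right kidneys of 6 Ctrl, 6 PBS and 6 FLX mice were analysed, with groups from the sample labels. The authors deposited 1 table of 32675 genes holding, for each mouse, FPKM values and estimated counts. Per the labels, cutadapt 1.9, HISAT2 2.0.4, UMI-tools and StringTie 1.3.4d were used, whereas the study's methods name fastp, HISAT-3N and GRCm38, with the counting tool not given in the sources used here. Deposited estimated counts are whole numbers, but counts of 4 were commoner than counts of 3, and they were taken as estimates.

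Counts were fitted with edgeR 4.0.16 (TMM, filterByExpr, glmQLFit and glmQLFTest, 1 model over 3 groups, R 4.3.3), and genes with an adjusted p under 0.05 were called. Exact permutation tests used log2(FPKM + 0.1). PBS replicate 6 was left out, as the study deleted 1 PBS mouse, and all 18 mice were an alternative. Other alternatives were DESeq2 1.42.0, limma 3.58.1 on log2(FPKM + pseudocount), upper-quartile scaling, no filter on low counts, a replicate block, FLX replicates 1 and 2 only, and single mice left out. Leaving out the 2 mice highest in fat markers was chosen after seeing the data. The fits were tested on simulated data. The 9 genes and the lists were chosen with earlier results of these data known, so their counts are descriptions. All 9 genes are named, with Nr3c2, Hsd11b2, Sgk1 and Per1, up to 10 called genes per list and comparison, and the 3 genes most correlated with a member (mean over 1 FPKM) for 5 of the 9 genes. P-values measure the spread between these mice. Gene positions in the table matched GRCm38 annotation for 91.0% of 32562 genes found in GENCODE M21, and the spans of Hsd11b1 and Lpin1 differed.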

Additional observations from a re-analysis of the deposited data

Results flagged for a closer look

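For each of the 9 genes, the highest and the lowest mouse of each group were set against the rest of the group by Dixon's test, in 36 sets that count the PBS group with 5 and with 6 mice. For normally distributed values, chance flags about 1 in 20 such sets. The test was run on FPKM not on a log scale, and the PBS sets of 5 and 6 mice share mice, so that this rate need not hold here. Of the 36 sets, 5 held a mouse far from the others, each the highest of its set. Ctrl replicate 3 had 11.2 FPKM of Nr3c1, against 7.24 to 8.02 in the other 5 Ctrl mice. Ctrl replicate 4 had 6.46 FPKM of Fkbp5, against 3.75 to 4.68. PBS replicate 3 had 2.84 FPKM of Zbtb16, against 0.512 to 1.11 in the other 4 of the 5 PBS mice. FLX replicate 4 had 54.5 FPKM of Ddit4, against 14.2 to 24.3. PBS replicate 5 had 72.7 FPKM of Pdk4, against 6.76 to 19.8, and it was also the mouse with the most fat marker RNA.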

How the results depend on the processing

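The 7 calls of PBS versus Ctrl held under each of the 27 alternatives. Over the 9 genes and 3 comparisons, called results kept their call in 263 settings and lost it in 34, and none turned. Results not called turned sign in 21 settings and became called in 10. The cause was not tested. In PBS versus Ctrl 772 genes were called, 388 to 1662 with single mice left out and 1424 with DESeq2. Upper-quartile scaling split the calls 314 higher and 449 lower, against 433 and 339. In FLX versus PBS 147 genes were called, 47 to 250 with single mice left out, 498 with DESeq2, 88 with no filter on low counts, 255, 242 and 244 with limma (pseudocounts 0.1, 1 and 0.01) and 0 with FLX replicates 1 and 2 only (1323 at an unadjusted p under 0.05). In FLX versus Ctrl 744 were called, 271 to 3099 with single mice left out (3099 without Ctrl replicate 3), 354 with all 18 mice, 1645 with DESeq2, 378 with no filter, 1214, 1197 and 1165 with limma, 4 with FLX replicates 1 and 2 only and 350 without the 2 mice highest in fat markers. Its upper-quartile split was 340 higher and 412 lower, against 422 and 322. Of the 9 genes, 1 was called in FLX versus PBS, 0 to 2 with single mice left out, 4 with DESeq2 (Fkbp5, Errfi1 and Lpin1 lower, Hsd11b1 higher), and 0 with all 18 mice, no filter, the replicate block or FLX replicates 1 and 2 only. Against Ctrl 3 were called, and 0 with FLX replicates 1 and 2 only. For the induced list, FLX versus PBS gave 10, 2 to 12 with single mice left out, 0 with FLX replicates 1 and 2 only and 3 without the 2 mice highest in fat markers. FLX versus Ctrl gave 4, 2 to 7 with single mice left out, 2 with all 18 mice, 9 with DESeq2, 7 with each limma fit and 0 with FLX replicates 1 and 2 only. For the hormone handling list, PBS versus Ctrl gave 1, 2 with DESeq2 or without the 2 mice highest in fat markers, and 1 to 3 with single mice left out. FLX versus Ctrl gave 0, 2 with DESeq2 and each limma fit, and 0 to 6 with single mice left out. Near 0, signs turned for Tsc22d3 in FLX versus PBS (0.051, 0.046 and 0.051 with limma, 0.087 without the 2 fat-rich mice, -0.16 to 0.084 with single mice left out) and Hsd11b2 (0.051 with FLX replicates 1 and 2 only). Against Ctrl they turned in FLX mice for Nr3c1 (0.021, 0.018 and 0.021 with limma, -0.10 to 0.021 with single mice left out), Nr3c2 (0.036, 0.023 and 0.039 with limma) and Pdk4 (-0.024 with upper-quartile scaling, -0.0038 with no filter, -0.091 with FLX replicates 1 and 2 only, -0.29 without the 2 fat-rich mice, -0.29 to 0.30 with single mice left out). Zbtb16 in FLX versus Ctrl lost its call with limma at a pseudocount of 1 (0.55, adjusted p = 0.0586).

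The labels do not state whether the replicate numbers pair the mice. Correlations cannot settle it, since a pairing need not show in them. Deviations of 16 same-numbered pairs correlated at -0.333 to 0.367, with 3 over 0.1, and 5 of 17 mice correlated best with their own number. With the replicate block, 419 genes were called in PBS versus Ctrl, 67 in FLX versus PBS and 258 in FLX versus Ctrl. In the block the 7 members of PBS versus Ctrl were called, the induced list gave 6 in FLX versus PBS, and Pdk4 was at -0.082 in FLX versus Ctrl. The lower totals of FLX replicates 3 to 6 limit the precision of genes with few counts, Zbtb16 among the 9.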
